A study of Mus musculus with 6 samples.

Results

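The genes for integrins and focal adhesion components were compared between MCEC cells carrying a short hairpin RNA against Fat4 and wild-type MCEC cells, an immortalised line labelled as mouse cardiac endothelial cell. The set was taken by gene symbol and held 37 of the 78317 genes in the deposited table: 12 integrin α subunits, 7 integrin β subunits and 18 genes of the adhesion plaque. Each group had 3 libraries, listed below as replicates 1, 2 and 3. Fat4 encodes an atypical giant cadherin, and the study concerned its role in endothelium during tumour angiogenesis. The labels do not say if the control cells carried a non-targeting hairpin, if the hairpin cells were a pool or a clone, or if replicates were grown separately. The p-values therefore cover the spread among these 6 libraries alone, and that spread may be technical.

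Integrins are cell surface receptors made of an α and a β subunit that bind matrix proteins outside the cell and the actin cytoskeleton inside it. Talins and kindlins bind the β subunit tail and switch the receptor on. The complex of integrin-linked kinase, PINCH and parvin, the kinases FAK and Src with their docking proteins, and the actin linkers vinculin, zyxin, tensin, α-actinin and filamin then assemble at the tail as a focal adhesion. In endothelium these contacts hold cells on the basement membrane and carry traction during vessel sprouting.

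The libraries held 10509069 to 11538010 counts in the knockdown group and 10305810 to 11870091 in the control group. Fat4 was scarce, with 8.5, 10 and 9 deposited counts in knockdown libraries and 10, 22 and 31.5 in control libraries. Its log2 fold change was -1.17 (SE 0.36, edgeR quasi-likelihood adjusted p = 0.039), the groups overlapped, and the call was lost in 9 of 19 alternative fits. Of 12 endothelial marker genes, 10 lay under 1 CPM (a gene's counts scaled to a common library total, here also for library composition) in both groups, and Tie1, Vwf, Erg, Cldn5, Emcn and Robo4 had no count in any library. The 12 summed to 9.50 to 10.7 CPM in knockdown and 10.3 to 10.6 CPM in control libraries. Esam and Egfl7 lay above 1 CPM, at 1.71 and 7.41 CPM in knockdown and 1.99 and 7.25 CPM in control libraries. Most transcripts of this endothelial list were thus absent or near absent in both groups, against the labelled cell type. Of 7 leukocyte marker genes, 6 lay under 1 CPM in both groups. The summed level of the fibroblast and mural list (11 genes, 5 tested) was 2242 to 2437 CPM in knockdown and 2631 to 2706 CPM in control libraries, with Col1a1 alone lower by call, at 1513 CPM in knockdown and 1964 CPM in control libraries. Acta2 was called higher in that list, so 2 of its 5 tested genes were called (40%, beside 16.8% of all tested genes). The median log2 fold change of these 5 genes was 0.17. All 10 mesothelial marker genes were detected, with a summed level of 1640 to 1694 CPM in knockdown and 1876 to 1983 CPM in control libraries. Of the 10, 5 were called lower (50%, beside 8.04% of all tested genes) and 0 higher. Upk1b and Upk3b were the largest parts of that sum, at 667 and 420 CPM in knockdown and 667 and 563 CPM in control libraries. Krt8 and Krt18 lay barely above 1 CPM, at 1.63 and 1.27 CPM in knockdown and 1.10 and 1.14 CPM in control libraries. The part of these marker differences in the results on integrins was not tested.

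Of the 37 genes, 26 had enough counts to be tested (edgeR's filter on low counts, which a gene can pass through either group), and 4 of the 26 passed an adjusted p of 0.05 over all genes. The collagen receptor gene Itga1, the laminin receptor gene Itga6 and the actin linker gene Tns1 were lower in the knockdown, and the integrin-linked kinase gene Ilk was higher. The other 22 did not pass. Among all 13372 tested genes 16.8% were called, 8.73% higher and 8.04% lower, so the members' 15.4% lay near the background. Among genes averaging at least 10 CPM, 3 of 23 members (13.0%) and 21.9% of all 8668 genes were called. Of all called genes 52.1% were higher under the scaling used here and 33.4% under scaling by library size alone. Only 1 of the 6 tested members whose groups did not overlap was higher, and non-overlap was seen in 23.1% of tested members against 34.9% of all tested genes. In bulk RNA, fewer cells of a type and less RNA per cell cannot be told apart.

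The members' differences were small. The median absolute log2 fold change was 0.07 over the 26 tested members and 0.15 over all tested genes. Among genes averaging at least 10 CPM it was 0.08 for 23 members and 0.13 for all 8668 genes. A value under 0.25 on the log2 scale was seen for 23 of the 26 tested members, and the 95% interval lay within 0.5 of 0 for 21. The median signed log2 fold change was -0.06 for the tested members and -0.01 for all tested genes.

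The β1 subunit dominated the β side and a quartet of α subunits made up nearly all of the α side. Levels between genes were compared as CPM per kilobase of exon, which assumes that reads cover whole transcripts, a point the labels do not state. On this scale Itgb1, the shared β subunit of most matrix receptors, stood at 60.7 ± 0.75 in knockdown and 61.4 ± 4.04 in control libraries (SD, n = 3). Itgb5, a partner of αv, followed at 14.3 ± 0.44 in knockdown and 15.1 ± 0.49 in control libraries. Together these subunits gave about all of the β level, with Itgb1 at 80.2% of it in knockdown and 79.6% in control libraries. Among α subunits, Itga3 stood at 12.4 ± 0.89 in knockdown and 13.5 ± 2.56 in control libraries, and Itgav at 11.7 ± 0.55 in knockdown and 11.1 ± 1.04 CPM per kilobase in control libraries. These neighbours in the order did not differ beyond their spread on this scale. In CPM not divided by exon length Itgav lay above Itga3 in every library, with means of 125.7 against 70.7 in knockdown and 119.0 against 76.9 in control libraries. Itga6 stood at 6.34 ± 0.71 in knockdown and 8.45 ± 0.53 in control libraries, and Itga5 at 5.92 ± 0.48 in knockdown and 6.47 ± 0.58 CPM per kilobase in control libraries. Itga7 and Itga1 were far lower, Itga1 at 0.19 ± 0.05 in knockdown and 0.35 ± 0.01 CPM per kilobase in control libraries. Itga6 and Itga5 also lay within their spread of each other in the knockdown but not in the control libraries.

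**Figure D1:**
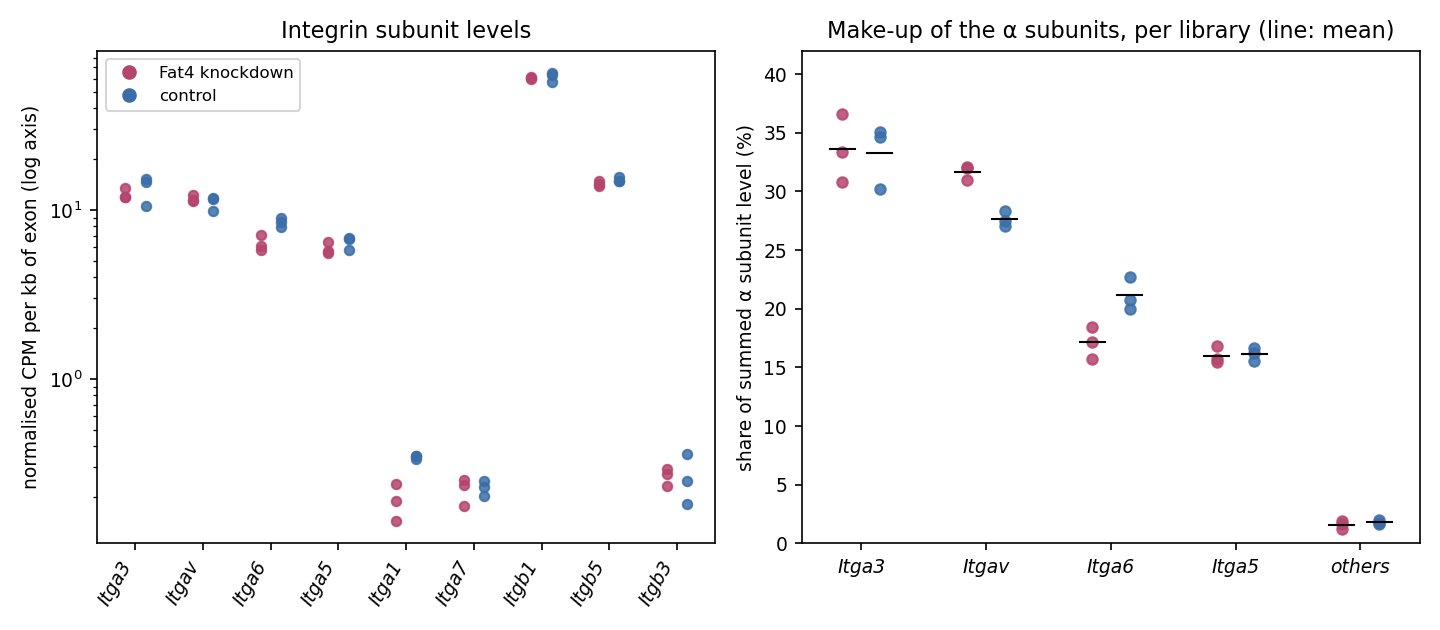
Left, level of the 9 tested integrin subunits in normalised CPM per kilobase of exon on a log axis, a point per library, with Fat4 knockdown left of control for each gene. Right, share of the summed α subunit level (percent) per library with the mean as a line. Itgb1 lies far above every other subunit shown, and for Itga6 and Itgav the shares of the groups do not overlap.

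The shares of Itga6, Itgav and Itga1 in the summed α level did not overlap between groups. The Itga6 share of the summed α level per kilobase was 15.7%, 17.2% and 18.5% in knockdown libraries, against 22.7%, 20.7% and 19.98% in control libraries. The Itgav share was 30.9%, 32.1% and 32.0% in knockdown libraries, against 28.3%, 27.0% and 27.5% in control libraries. The small Itga1 share was 0.393%, 0.533% and 0.62% in knockdown libraries, against 1.005%, 0.811% and 0.796% in control libraries. Each share depends on the others, so a higher Itgav share goes with a lower Itga6 share without Itgav itself passing the test. The Itga3 share was 33.6% ± 2.89 in knockdown and 33.3% ± 2.67 in control libraries (SD, n = 3), a difference smaller than the spread. The summed α level was 36.9 ± 1.497 in knockdown and 40.2 ± 4.66 CPM per kilobase in control libraries.

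Many subunits were absent or near absent. Itga4, Itga8 and Itga9 had no count in any library, and a count of 0 leaves room for 0.253 to 0.291 CPM depending on the library (taken as 3 counts, for counting error alone). Itga2 and the epithelial kindlin gene Fermt1 had 1 count over all libraries, Itga11 had 5, Itgb6 had 11 and Itgb8 had 13. Itgb4, which pairs with α6 in epithelia, had 4 to 6 counts per library, Itgb7 had 5 to 10 and Itga10 had 5 to 13.5. These 11 genes were not tested. The laminin receptor gene Itga7 and the vitronectin receptor gene Itgb3 were tested at low levels, with 1.80 ± 0.33 and 1.57 ± 0.18 CPM in knockdown libraries, against 1.85 ± 0.19 and 1.55 ± 0.53 CPM in control libraries (SD, n = 3). Their 95% intervals ran from -0.56 to 0.45 and from -0.59 to 0.61 on the log2 scale, so changes of moderate size could not be seen at this depth.

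The promoters of the members called and found in RefSeq (GRCm38.p6) are shown with that of Itgb1, which did not pass, so that the start regions of genes with different results can be read side by side. Each runs from 250 bases before to 50 bases after a transcription start, 5′ to 3′ on the gene's strand, and the RefSeq table used here held a promoter for 29 of the 37 members, Itga6 not among them. They lie at chr13:115101915-115102214 (minus strand) for Itga1, chr1:74124499-74124798 (minus strand) for Tns1, chr7:105736340-105736639 (plus strand, the lower of a pair of listed starts) for Ilk, and chr8:128685404-128685703 (plus strand) for Itgb1. Capitals mark matches on either strand to the TEAD site CATTCC, the GC box GGGCGG, the E-box CACGTG, the AP-1 site TGANTCA or the CArG box.
Itga1: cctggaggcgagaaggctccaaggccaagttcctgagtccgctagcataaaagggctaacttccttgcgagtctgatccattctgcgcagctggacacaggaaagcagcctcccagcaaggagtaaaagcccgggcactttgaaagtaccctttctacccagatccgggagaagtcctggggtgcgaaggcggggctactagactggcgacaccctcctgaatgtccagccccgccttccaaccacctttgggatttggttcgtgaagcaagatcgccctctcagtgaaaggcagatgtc
Tns1: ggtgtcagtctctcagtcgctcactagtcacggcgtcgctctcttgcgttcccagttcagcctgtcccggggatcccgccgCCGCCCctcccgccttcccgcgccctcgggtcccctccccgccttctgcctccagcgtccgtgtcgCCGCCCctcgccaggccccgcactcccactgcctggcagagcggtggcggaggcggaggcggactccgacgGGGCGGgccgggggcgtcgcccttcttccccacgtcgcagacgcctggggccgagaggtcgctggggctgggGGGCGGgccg
Ilk: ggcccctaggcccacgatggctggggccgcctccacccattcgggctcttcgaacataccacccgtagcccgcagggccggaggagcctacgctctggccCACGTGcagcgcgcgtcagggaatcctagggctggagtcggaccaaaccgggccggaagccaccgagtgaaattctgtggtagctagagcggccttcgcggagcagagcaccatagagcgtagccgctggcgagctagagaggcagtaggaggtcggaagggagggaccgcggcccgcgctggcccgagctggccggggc
Itgb1: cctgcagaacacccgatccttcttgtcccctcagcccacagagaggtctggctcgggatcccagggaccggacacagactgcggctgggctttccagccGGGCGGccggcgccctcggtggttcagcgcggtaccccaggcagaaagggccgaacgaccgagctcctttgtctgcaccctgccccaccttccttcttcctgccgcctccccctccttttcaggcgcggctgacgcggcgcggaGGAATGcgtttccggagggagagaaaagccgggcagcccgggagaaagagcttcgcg

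The Itga1 window held no match to these motifs and 56.7% G or C bases. The Tns1 window held 4 GC boxes at 75.7% G or C, the Ilk window shown 1 E-box at 69.0%, and the Itgb1 window 1 GC box and 1 TEAD site at 67.3%. The window of the other listed Ilk start held 3 GC boxes and no E-box, so the motif content of Ilk depends on the start taken. Among all 32851 promoters in the RefSeq table, 35.7% held a GC box, 14.7% a TEAD site, 7.15% an E-box, 7.81% an AP-1 site and 1.63% a CArG box. The members' 35 listed promoters held a GC box in 62.9%, a TEAD site in 14.3%, an E-box in 5.71%, an AP-1 site in 11.4% and a CArG box in 8.57% of cases. A match is a stretch of letters only and says nothing on binding.

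Itga1, which pairs with β1 as a receptor for collagens and laminin, had the largest change of the members. This gene (ENSMUSG00000042284, GRCm39 chromosome 13, minus strand, exons spanning 115089632 to 115238500) had 30, 36.5 and 49 deposited counts in knockdown libraries, against 67, 73.5 and 77 in control libraries. The normalised levels were 2.68, 3.53 and 4.45 CPM in the knockdown and 6.51, 6.54 and 6.27 CPM in the control. The groups did not overlap, and the knockdown libraries were spread more widely than the control libraries. The log2 fold change was -0.86 (SE 0.17, 95% interval -1.22 to -0.49, edgeR adjusted p = 0.00525), and the gene was called in each of 19 alternative fits that tested it, from -1.06 to -0.68. Its exons share 685 of their 18599 bases with Gm49395, a gene model on the same strand with exons around those of Pelo. Gm49395 averaged 54.6 ± 3.12 CPM in knockdown and 64.7 ± 5.03 CPM in control libraries (SD, n = 3, a fold change of -0.25 in log2 units with edgeR adjusted p = 0.0299), and the labels do not say how reads were divided between these models.

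Itga6, the α subunit of laminin receptors and a marker of cells resting on basement membrane, fell by 25.0%. The gene (ENSMUSG00000027111, GRCm39 chromosome 2, plus strand, exons spanning 71575960 to 71688760) had levels of 52.7, 55.9 and 65.1 CPM in knockdown libraries, against 72.3, 82.0 and 77.3 CPM in control libraries. Every knockdown library lay below every control library. The log2 fold change was -0.42 (SE 0.08, 95% interval -0.59 to -0.25, edgeR adjusted p = 0.00408), and it stayed past the threshold in all 20 alternative fits, from -0.51 to -0.33. The ratio of Itga6 to Itgb1 counts, in which library scaling cancels, was 0.210, 0.226 and 0.266 in knockdown libraries and 0.311, 0.311 and 0.302 in control libraries.

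The other laminin, fibronectin and vitronectin receptor subunits did not pass the test. Itga3, an α subunit of laminin receptors, had 76.6, 67.8 and 67.9 CPM in knockdown libraries, against 60.1, 86.8 and 83.7 CPM in control libraries, with control replicate 1 below all others. Its log2 fold change was -0.12 (95% interval -0.35 to 0.11, edgeR adjusted p = 0.485). Itga3 was called in 1 of 20 alternative fits, as lower without control replicate 1 (-0.26, edgeR adjusted p = 0.0131). After correction for GC content and exon length it stood at 0.04 (edgeR adjusted p = 0.833). Itga5, the α subunit of the main fibronectin receptor, had a log2 fold change of -0.13 (95% interval -0.32 to 0.05). Itgav had 121.8, 122.8 and 132.5 CPM in knockdown libraries, against 106, 126 and 125 CPM in control libraries, a log2 fold change of 0.08 (95% interval -0.08 to 0.24). Itgb1 had 251, 247 and 245 CPM in knockdown libraries, against 232, 264 and 256 CPM in control libraries. The knockdown values of Itgb1 fell inside the control range, with a log2 fold change of -0.02 (95% interval -0.15 to 0.11). Itgb5 lay slightly lower in each knockdown library than in any control library, at -0.08 (95% interval -0.21 to 0.05, edgeR adjusted p = 0.382).

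**Figure D2:**
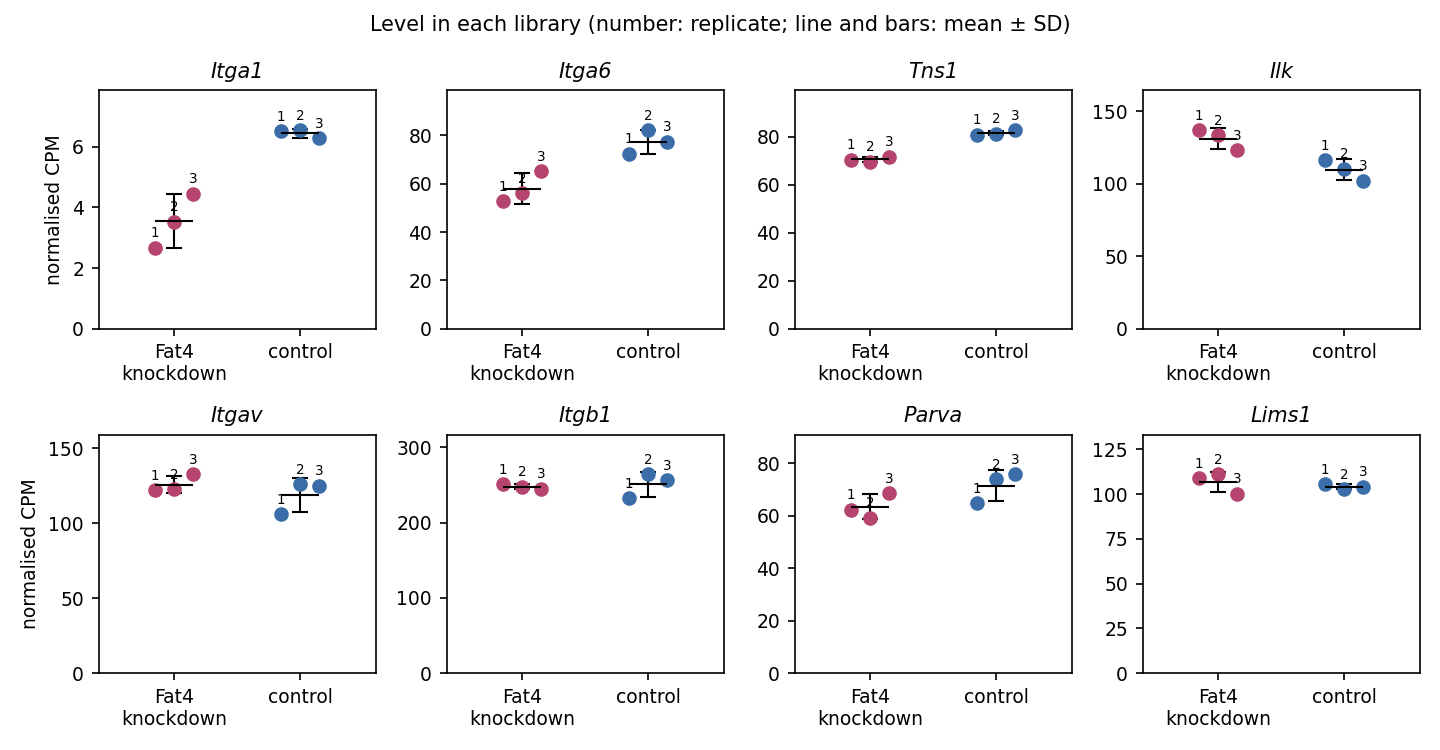
Normalised CPM of 8 members in each library, with axes from 0, Fat4 knockdown left of control, the replicate number above each point and the mean ± SD in black (n = 3 per group). Itga1, Itga6 and Tns1 lie lower and Ilk higher in the knockdown without overlap, while Itgav, Itgb1, Parva and Lims1 overlap.

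Talins and kindlin, which activate integrins, did not pass. Tln1, the main talin gene, had 172, 157 and 186 CPM in knockdown libraries, against 199.6, 183 and 186 CPM in control libraries, with knockdown replicate 3 inside the control range. Its log2 fold change was -0.14 (95% interval -0.29 to 0.004, edgeR adjusted p = 0.173), and 360 of its exon bases are shared with Creb3 on the other strand. Tln2 lay at -0.22 (edgeR adjusted p = 0.307) and the kindlin gene Fermt2 at -0.01 (95% interval -0.14 to 0.12).

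In the complex of integrin-linked kinase, PINCH and parvin, Ilk alone was called, and differences between the genes of the complex were not tested. Ilk, its central pseudokinase (ENSMUSG00000030890, GRCm39 chromosome 7, plus strand, exons spanning 105385799 to 105392132), had 136.9, 133.6 and 123.03 CPM in knockdown libraries, against 116, 110 and 102 CPM in control libraries. All knockdown libraries lay above all control libraries. The log2 fold change was 0.26 (SE 0.07, 95% interval 0.11 to 0.41, edgeR adjusted p = 0.0187). The call was lost without knockdown replicate 1, knockdown replicate 2, control replicate 2 or control replicate 3, with edgeR adjusted p-values from 0.0661 to 0.0857, while the log2 fold change stayed between 0.21 and 0.31 whichever library was left out. Lims1, the PINCH gene, had 109, 111 and 100.2 CPM in knockdown libraries, against 106, 103 and 104 CPM in control libraries (log2 fold change 0.03, edgeR adjusted p = 0.759). Parva, the parvin gene, had 62.3, 59.3 and 68.5 CPM in knockdown libraries, against 64.8, 73.9 and 75.7 CPM in control libraries (log2 fold change -0.17, edgeR adjusted p = 0.128). Parva was called in 1 of 20 alternative fits, as lower without control replicate 1 (-0.24, edgeR adjusted p = 0.0269). After correction for GC content and exon length it stood at -0.10 (edgeR adjusted p = 0.372).

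The ratio of Ilk to Lims1 counts was 1.255, 1.203 and 1.229 in knockdown libraries and 1.10, 1.07 and 0.979 in control libraries. The ratio of Ilk to Parva was 2.20, 2.25 and 1.80 in knockdown libraries, against 1.80, 1.49 and 1.35 in control libraries, so knockdown replicate 3 nearly met control replicate 1. These ratios were chosen after the values were seen and were not tested. Of the 2744 exon bases of Ilk, 2106 are shared with Taf10 on the other strand. The labels do not state the strand setting of the counting, and without strand the reads of both genes cannot be told apart over these bases. Taf10 had 170, 168 and 172 CPM in knockdown libraries, against 162, 162 and 159 CPM in control libraries (log2 fold change 0.08, edgeR adjusted p = 0.367). The sum of Ilk and Taf10 was 301 ± 6.02 CPM in knockdown and 271 ± 9.15 CPM in control libraries (SD, n = 3), a log2 ratio of means of 0.15.

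The signalling core of the adhesion showed no called change. Ptk2, the gene of focal adhesion kinase, had 68.4, 67.7 and 67.1 CPM in knockdown libraries, against 63.9, 68.0 and 65.4 CPM in control libraries. Its log2 fold change was 0.04 (95% interval -0.08 to 0.17, edgeR adjusted p = 0.672). Src lay at 0.04 (95% interval -0.11 to 0.18) and Bcar1, the gene of the docking protein p130Cas, at -0.03 (95% interval -0.17 to 0.10). The paxillin gene Pxn had 40.6, 45.3 and 39.3 CPM in knockdown libraries, against 44.9, 44.2 and 51.1 CPM in control libraries, and -0.17 missed the threshold (edgeR adjusted p = 0.161).

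Among actin linkers Tns1 was called, and its call depended on the processing. Tns1, a tensin gene whose product binds β tails and actin (ENSMUSG00000055322, GRCm39 chromosome 1, minus strand, exons spanning 73949390 to 74163608), had 70.4, 69.6 and 71.7 CPM in knockdown libraries, against 80.8, 81.3 and 82.7 CPM in control libraries. The groups did not overlap and each was tight. The log2 fold change was -0.21 (SE 0.06, 95% interval -0.33 to -0.09, edgeR adjusted p = 0.0213). It turned to 0.03 after correction for GC content and exon length (edgeR adjusted p = 0.756), and DESeq2 gave an adjusted p of 0.0647 at -0.20. Leaving out any of the libraries that ended the Ilk call ended this one too, with edgeR adjusted p-values from 0.0631 to 0.086, while the log2 fold change stayed between -0.22 and -0.20 over all 6 fits that left out a library. Zyx lay lower in each knockdown library, at 475, 452 and 463 CPM against 498, 506 and 514 CPM in control libraries, but its log2 fold change of -0.13 missed the threshold (edgeR adjusted p = 0.129). Zyx was called in 1 of 20 alternative fits, under scaling by library size alone (-0.18, edgeR adjusted p = 0.0343). After correction for GC content and exon length it stood at 0.01 (edgeR adjusted p = 0.904).

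Vcl had 143, 144 and 159 CPM in knockdown libraries, against 141, 152 and 158 CPM in control libraries, a log2 fold change of -0.02 (95% interval -0.16 to 0.12). Of its exon bases 2090 are shared with Ap3m1 on the other strand. The most abundant members per kilobase were the α-actinin gene Actn1, at 105 ± 4.46 in knockdown and 108 ± 2.11 in control libraries, and Zyx, at 86.0 ± 2.13 in knockdown and 93.9 ± 1.45 CPM per kilobase in control libraries (SD, n = 3). Actn1, Actn4 and the filamin gene Flna had log2 fold changes of -0.04, -0.06 and -0.06. The tensin gene Tns3 lay at 0.07 (edgeR adjusted p = 0.519), and at 0.23 after correction for GC content and exon length, where it was called (edgeR adjusted p = 0.0165).

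**Figure D3:**
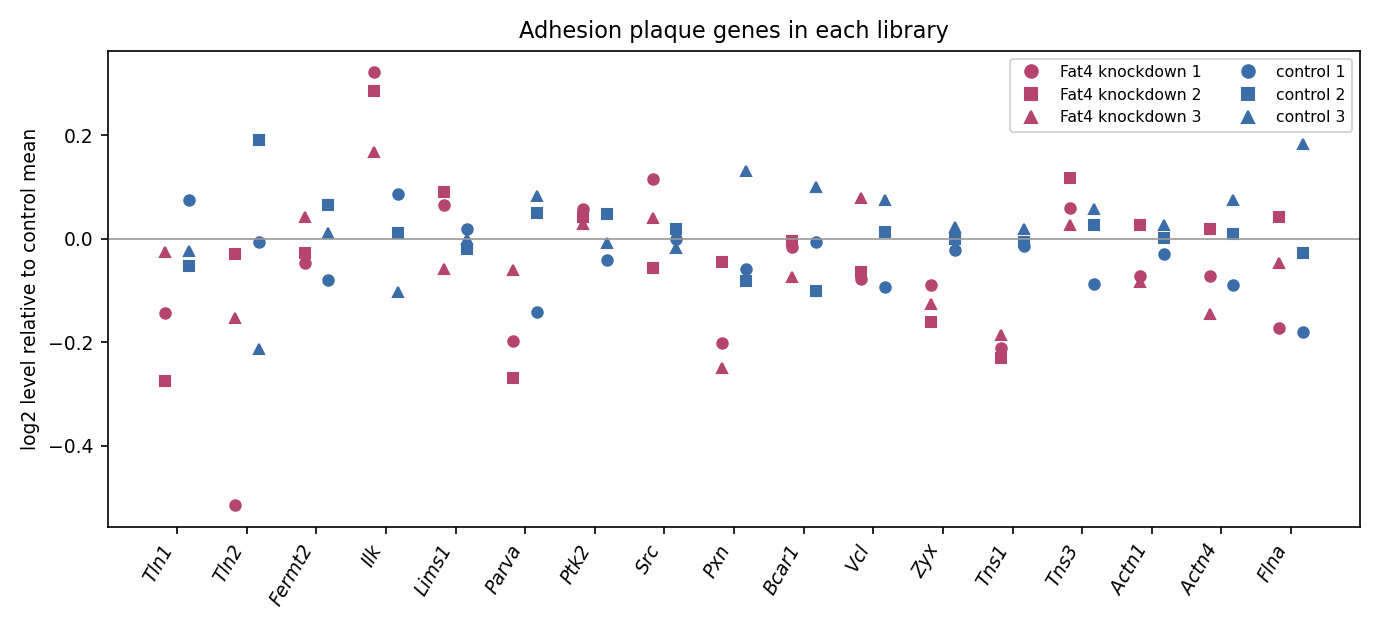
Level of the 17 tested adhesion plaque genes in each library as the log2 difference from the control mean, Fat4 knockdown left of control, with circle, square and triangle for replicates 1, 2 and 3. Ilk lies higher and Tns1 and Zyx lower in the knockdown without overlap, and the remaining genes overlap.

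Correction for GC content and exon length changed the sign of many small values. It left 7 of 26 tested members with a negative log2 fold change, against 19 without it, and 14 members differed in sign. After it 2 members were called higher, Ilk at 0.26 and Tns3, and 2 lower, Itga1 at -0.78 and Itga6 at -0.33. That is 15.4% of the tested members beside 12.2% of all tested genes. The directions of Itga1, Itga6 and Ilk were therefore the same with and without the correction.

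**Figure D4:**
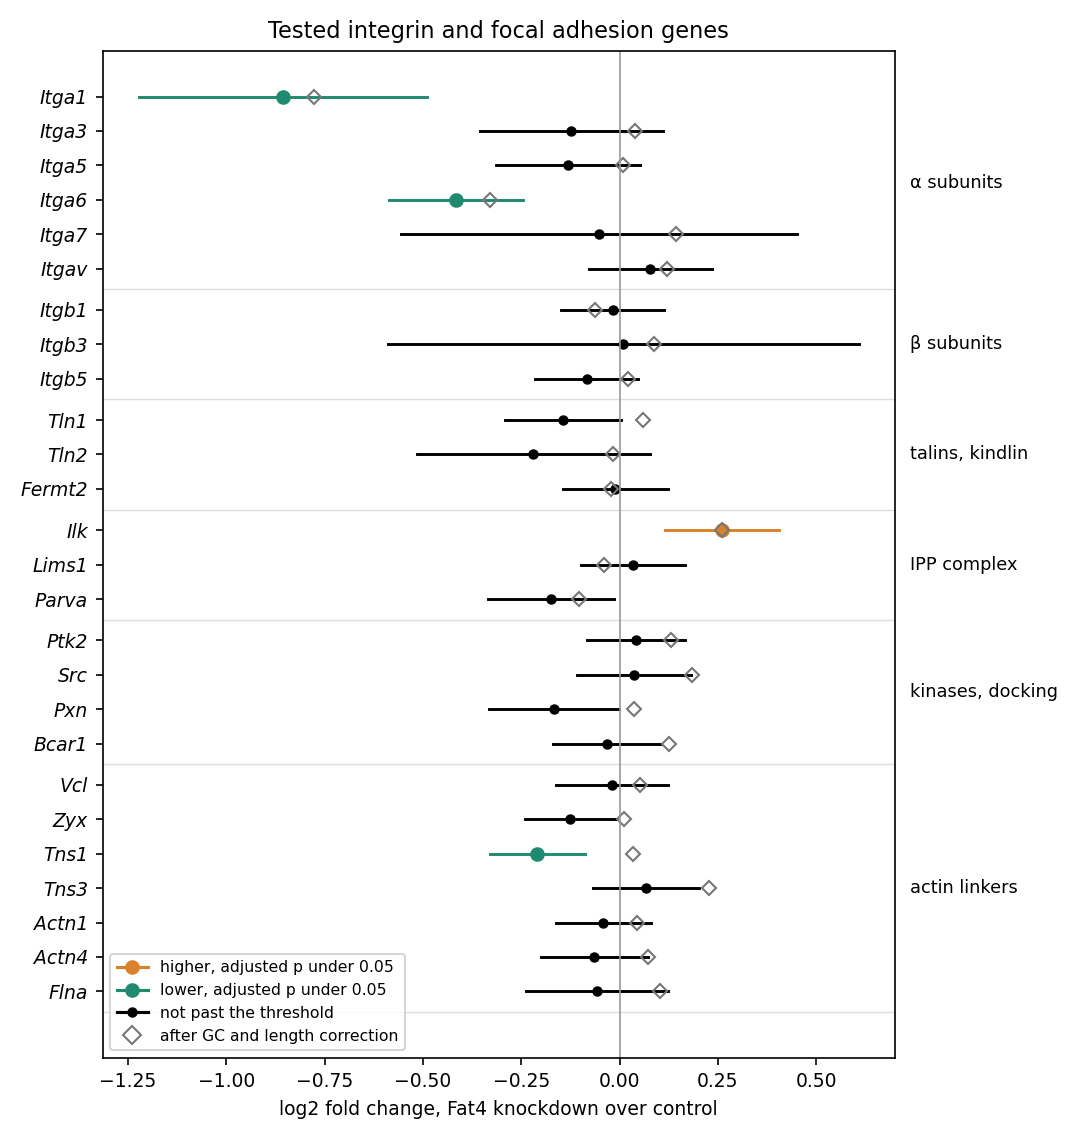
Log2 fold change of Fat4 knockdown over control for the 26 tested members by role, with 95% intervals (edgeR, n = 3 per group). Filled points give the uncorrected fit, coloured where adjusted p was under 0.05, and open diamonds the fit corrected for GC content and exon length. Itga1 and Itga6 stay left of 0 and Ilk right of 0 in both.

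Other genes of the adhesion pathway and ligand genes were read from lists chosen with earlier results of these data known. Of 80 further adhesion genes 71 were tested, 7 were higher and 8 lower (21.1% called, beside 16.8% of all tested genes, with a median log2 fold change of -0.07). After correction for GC content and exon length 7 were higher and 6 lower (18.3%, beside 12.2% of all tested genes) with a median of 0.02. Among signalling genes (26 tested, 7.69% called), the integrin-activating GTPase gene Rap1b rose (log2 fold change 0.39, edgeR adjusted p = 0.00735) and the caveolin gene Cav1 fell (-0.32, edgeR adjusted p = 0.00362). Rap1b stood at 0.25 after the correction and missed the threshold without control replicate 2 (edgeR adjusted p = 0.0529). Among 27 tested linkers and scaffolds 3 rose and 4 fell (25.9% called, beside 16.8% of all tested genes). With the correction 4 were higher and 2 lower (22.2%, beside 12.2%). In the uncorrected fit the LIM protein genes Csrp1 (0.39) and Fhl2 (0.43) were higher. Kank2 (-0.31), whose product binds talin, and Sorbs3 (-0.63), the vinexin gene, were lower. The Kank2 call was lost in 4 of 20 alternative fits, among them the correction for GC content and exon length, where it stood at -0.16. The Sorbs3 call was lost in 4 of 19 and the Fhl2 call in 1 of 20.

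Of 18 tested regulators and partners 3 rose and 3 fell (33.3% called, beside 16.8% of all tested genes). After correction for GC content and exon length 2 were higher and 3 lower (27.8%, beside 12.2% of all tested genes). Itgb1bp1, whose product binds the β1 tail and restrains integrin activation, had 36.3 ± 1.59 CPM in knockdown and 25.0 ± 3.91 CPM in control libraries (SD, n = 3). Its log2 fold change was 0.54 with an edgeR adjusted p of 0.00285, and it was called in all 20 alternative fits. The urokinase receptor gene Plaur (-0.32) and the tetraspanin gene Cd81 (-0.28) were lower, and Thy1 (0.31), an integrin-binding surface glycoprotein gene, was higher. The Cd81 call was lost in 4 of 20 alternative fits and the Thy1 call in 3 of 20, while the Plaur call held in all 20.

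Of 37 ligand genes 28 were tested, 1 was higher and 11 lower (42.9% called, beside 16.8% of all tested genes, 8.73% higher and 8.04% lower), with a median log2 fold change of -0.14. After correction for GC content and exon length 3 were higher and 8 lower (39.3%, beside 12.2%), and the median was 0.00. The falling genes included Lamc1 (-0.31), the γ1 chain of most laminins and so part of the ligands of α3 and α6 receptors. Lamc1 was the 1 called of 7 tested laminin genes (14.3%, beside 16.8% of all tested genes), whose median log2 fold change was -0.02. After correction for GC content and exon length 2 of the 7 laminin genes were higher and 1 lower, with a median of 0.12. Also lower were 6 of 9 tested collagen genes (66.7%), among them Col3a1 (-0.64), Col6a2 (-0.59), Col1a1 (-0.38) and Col6a1 (-0.47). The median of the 9 was -0.28. With the correction 5 of the 9 were lower and 0 higher (55.6%, beside 12.2%), with a median of -0.18. Of 12 tested ligands of RGD-binding and other integrins, Spp1, the osteopontin gene (0.76), was the single higher one, while Thbs1 (-0.68), Vcam1 (-0.36) and Fn1, the fibronectin gene (-0.21), were lower. With the correction 1 of these 12 was higher and 2 lower (25%, beside 12.2%), with a median of -0.01. The Fn1 call was lost in 7 of 20 alternative fits. The correction for GC content and exon length moved Fn1 to -0.04, Lamc1 to -0.18 and Col1a1 to -0.20, and Lamc1 lost its call when the replicate block was added to it.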

How the data were processed

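Messenger RNA was sequenced as tagmented cDNA, per the labels' protocols, in 3 Fat4 knockdown and 3 control libraries. STAR 2.7.11, fastp 0.24.0, SAMtools 1.22.1, FastQC 0.12.1, MultiQC 1.32 and the build GRCm39 are listed, per the submitters' processing notes. The read counter, strand setting and annotation: not given in the sources used here. As deposited, the values are estimated counts per gene, of which 29.0% of the nonzero ones are not whole (tolerance 1e-06), and CPM, the counts of each library scaled to a common total, as the authors deposited them. Only the counts were analysed. Counts were rounded, 92 spike-in rows were left out, and a symbol shared by rows was assigned to the row with most counts.

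Genes were filtered with filterByExpr (count minimum 10), scaled by TMM and tested by quasi-likelihood (glmQLFit, then glmQLFTest, knockdown over control, no block; edgeR 4.0.16, R 4.3.3) with Benjamini-Hochberg adjustment over all genes tested, at 0.05. The SE is the log2 fold change divided by the square root of F, and 95% intervals use the fit's degrees of freedom. CPM in the text uses TMM-scaled library sizes. Total counts ran from 10305810 to 11870091 a library and the biological coefficient of variation was 6.31%. Per-kilobase levels use the table's exon lengths. For the GC and length correction, smooth per-library trends (mgcv 1.9.3) served as offsets; GC came from the longest GRCm38 transcript of each gene and was found for 95.6% of tested genes, the others keeping an offset of 0.

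The members, lists, named genes and alternatives were chosen with earlier results of these data known. By the rule for named genes each called member is given in full, the other members with a value or counts, and of each further list up to 4 called genes with the smallest adjusted p. Alternatives were scaling by library size, by upper quartiles and by RLE, DESeq2 1.42.0, limma-voom (limma 3.58.1), other filters, rounding down, leaving out mitochondrial and ribosomal protein genes, a replicate block, GC and length correction and each library left out. Simulated counts for the same 3 against 3 design, over 13233 genes, were tested the same way. This called 36 of 50 genes changed 1.3-fold and 49 of 50 changed 1.5-fold, with 9 of 194 calls false. The data gave 2242 calls over 13372 genes, far more than the simulation, so these rates need not hold for these libraries. Pairs of libraries within a group differed by more than sampling noise, so all 6 were kept.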

Additional observations from a re-analysis of the deposited data

How the results depend on the processing

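The calls of Itga1 and Itga6 held in each alternative that tested them, and at least 10 CPM in 3 libraries left Itga1 untested. Correction for GC content and exon length gave 2 higher members in place of 1, also with a replicate block, and 3 without control replicate 1, where Src was called too (both combinations chosen after seeing the data). In these fits Tns1 turned to 0.034, 0.033 and 0.066 on the log2 scale, and the corrected fit with the block called 1264 genes over the whole table. Correction alone called 1626, DESeq2 1535 and a robust fit, chosen after seeing the data, 2324, against 2242. Over the 6 fits that left out a library, 0 to 1 members were higher, 2 to 5 lower and 922 to 3032 genes called: 1194 without knockdown replicate 1, 1110 without knockdown replicate 2, 922 without control replicate 2, 1096 without control replicate 3 and 3032 without control replicate 1. The cause was not tested. Same-numbered libraries had correlations of deviations from their group means of -0.20, -0.16 and 0.14 over 8668 genes. Libraries with different numbers ran from -0.20 to 0.27, so no pairing by replicate number stood out. Deviations within a group sum to 0, so these correlations depend on each other, and a batch shared in another way was not tested. The replicate block gave 1 higher and 3 lower members and 1958 called genes. Depth limits the subunits at or under a few CPM, where a change of moderate size could not be seen.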

Other observations

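Integrin genes of leukocytes and platelets, which are outside the 37 members, were near absent. Itgad, Itgam and Itgax had no count in any library, and Itgb2, the shared β subunit of leukocyte integrins, had 0.65 ± 0.03 CPM in knockdown and 0.51 ± 0.16 CPM in control libraries (SD, n = 3). The exception was Itga2b, the platelet fibrinogen receptor subunit, at 3.11 ± 0.07 CPM in knockdown and 2.87 ± 0.29 CPM in control libraries (SD, n = 3), which gave a log2 fold change of 0.12 with an edgeR adjusted p of 0.727.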
